A study of Mus musculus with 18 samples.

Results

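The genes of peptide presentation by MHC class I were followed through 18 RNA-seq libraries of OT-I CD8+ T cells. The 10 genes were taken by name for their place in the pathway: the heavy chains H2-K1 and H2-D1, the light chain B2m, the peptide transporter Tap1 and Tap2, the loading factor Tapbp, the immunoproteasome subunits Psmb8, Psmb9 and Psmb10, and the transcriptional activator Nlrc5. They are 10 of the 45706 genes listed for every library, and all 10 passed the filter on low counts. OT-I cells are CD8+ T cells from transgenic mice whose T cell receptor recognizes an ovalbumin (OVA) peptide, and all cells grew with the cytokines IL-15 and IL-7. Repeat peptide stimulated cells received the peptide daily up to day 5, whereas single peptide stimulated cells met it at the start of the culture only and were then washed. From day 5 to day 8 the cells were kept with 1 µM ibrutinib, an inhibitor of the kinase BTK and its relatives, or with DMSO. According to the paper, peptide remained in the medium of repeat peptide cells during ibrutinib treatment. The paper also describes peptide stimulation as lasting throughout the repeat peptide cultures. The stimulations therefore differed in the presence of peptide during the treatment as well as before it. The groups held 4 libraries of repeat peptide cells with DMSO, 5 of repeat peptide cells with ibrutinib, 5 of single peptide cells with DMSO and 4 of single peptide cells with ibrutinib. The labels name 6 experiments, lettered A to F here. All 4 groups had a library from each of experiments A to D, while E supplied a repeat peptide ibrutinib library and F a single peptide DMSO library, so that the libraries of a group came from different experiments. The strain entry of all libraries reads OT-1 mice WT, whereas a btk knockout appears in the genotype entry for experiments B to E. This entry was taken for an experiment name, and the btk state of those cells rests on that reading.

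MHC class I molecules show peptides from the inside of a cell to CD8+ T cells. The proteasome cuts proteins into peptides, and the interferon-inducible subunits encoded by Psmb8, Psmb9 and Psmb10 replace the constitutive catalytic subunits encoded by Psmb5, Psmb6 and Psmb7. The transporter made of TAP1 and TAP2 moves the peptides into the endoplasmic reticulum, where tapasin, the product of Tapbp, holds it next to empty class I molecules. A class I molecule is a heavy chain paired with beta-2 microglobulin, the product of B2m. NLRC5 has no DNA-binding domain of its own and acts on class I promoters through factors bound there. In these cultures the OVA peptide was shown to the OT-I cells by H2-Kb, the product of H2-K1 in C57BL/6 mice, so the T cells carried the restricting molecule themselves.

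In the GENCODE M21 annotation of GRCm38, 7 of the 10 genes lie on chromosome 17. H2-K1 (ENSMUSG00000061232) spans chr17:33996017-34000347 on the minus strand and H2-D1 (ENSMUSG00000073411) spans chr17:35262730-35267499 on the plus strand. Between them lie Psmb9 at chr17:34181987-34187764, Tap1 at chr17:34187553-34197225, Psmb8 at chr17:34197721-34201454 and Tap2 at chr17:34203527-34216321, and Tapbp lies at chr17:33915899-33929292. B2m is at chr2:122147686-122153083, Nlrc5 at chr8:94434356-94527272 and Psmb10 at chr8:105935735-105938444. Exons of Tap1 and Psmb9 overlap on opposite strands, and exons of Tapbp overlap those of Zbtb22 on the same strand, whose count reached 11.2% of that of Tapbp. The antisense gene 9330175E14Rik reached 8.31% of the count of Nlrc5. The library kit marks the strand, but whether the counting used it is not given in the sources used here.

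The heavy chain promoters are shown because H2-K1 and H2-D1 had fold changes of the same sign in all 5 comparisons that follow, and the B2m promoter because it carries 2 of the same kinds of element. B2m, Tap2 and Nlrc5 had these same signs too, so the signs were not particular to the heavy chains. The sequences are RefSeq promoter windows of build GRCm38.p6. Capitals mark GGGNNTTCC, a kappaB element bound by NF-kappaB, the interferon-stimulated response element in the forms GAAANNGAA and GAANNGAAA, bound by interferon regulatory factors, and TGACG, part of the X box region through which NLRC5 acts. All were searched on both strands. The H2-K1 stretch is chr17:34000363-34000472 on the minus strand, the H2-D1 stretch chr17:35262923-35262952 on the plus strand and the B2m stretch chr2:122147532-122147641 on the plus strand, within an intron of Patl2 that runs the other way.
H2-K1: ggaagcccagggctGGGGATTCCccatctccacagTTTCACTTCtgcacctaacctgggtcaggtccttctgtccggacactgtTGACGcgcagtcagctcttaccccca
H2-D1: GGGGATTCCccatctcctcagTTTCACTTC
B2m: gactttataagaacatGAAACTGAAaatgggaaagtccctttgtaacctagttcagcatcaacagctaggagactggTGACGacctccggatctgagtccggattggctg

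The kappaB and interferon elements of H2-K1 and H2-D1 were spaced alike, and 29 of 30 bases over this stretch were identical. Over 110 bases around it, 99 were identical (90.0%). Of all 32851 RefSeq windows of this length, 5.82% held the kappaB letters, 8.56% and 7.52% the first and second interferon form, and 20.8% TGACG. Tap1 and Psmb9 are transcribed away from each other from starts 226 bases apart, and the stretch between them held TGACG but neither interferon form. A window was at hand for 8 of the 10 genes. Those of Tapbp, Psmb8 and Psmb10 held none of the letters marked above. The letters TTCNNNGAA of a gamma-activated site were found only for Psmb8, and in 8.3% of all windows. CCAAT was found for all of these genes except Psmb8 and Psmb10, and in 37.4% of all windows. The second interferon form and TGACG were added to the search after the windows had been seen. A match of letters is not a site that a factor was shown to bind.

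Depth ranged from 23445922 to 51995372 expected counts per library (median 27420966). The CD8+ T cell markers Cd3d, Cd3e, Cd3g, Cd8a and Cd8b1 summed to 2260 to 3150 TPM, a level per transcript length scaled to the same total in every library. The summed markers of CD4+ T cells, B cells, myeloid cells and dendritic cells stayed at or below 9.18 TPM and those of NK cells at or below 25.6 TPM. The CD4 and B cell sums were higher in the single peptide groups, with medians of 0.87 and 3.69 TPM against 0.095 and 1.81 TPM in repeat peptide cells with DMSO. The part of other cells in the results was not tested. In composition the repeat peptide ibrutinib library of experiment E and the single peptide ibrutinib libraries of experiments C and D lay at an extreme. They had 14.1%, 14.8% and 14.5% of all TPM in their 10 highest genes. The other libraries had 8.98% to 13.4%, the last in the single peptide DMSO library of experiment D, so there was no clear gap. The median log2 difference between TPM and counts normalized by TMM, edgeR's scaling between libraries, was -6.27, -6.23 and -6.15 in the first 3 libraries. It was -6.14 to -5.58 in the others.

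Compared per transcript length, B2m was the most abundant of the 10 genes, with a median of 2883 TPM over the 18 libraries and rank 65 among all listed genes. The heavy chains followed with 2297 TPM for H2-K1 and 1505 TPM for H2-D1. Psmb8 stood at 733 TPM, well above Psmb9 at 175.5 TPM and Psmb10 at 167.6 TPM. Tapbp had a median of 244.1 TPM, Tap1 204.2 TPM and Tap2 157.9 TPM, and their ranges over the libraries overlapped with those of Psmb9 and Psmb10. The regulator Nlrc5 was lowest, with 90.36 TPM and a range from 56.53 to 216.6 TPM. Groups were compared with normalized counts, which are expected counts scaled by TMM to a common library size. A gene was called changed at an adjusted p under 0.05 in edgeR's quasi-likelihood test over 12255 genes, if its mean normalized count was 50 or more and it had a log2 fold change beyond 0.2 in either direction.

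**Figure D1:**
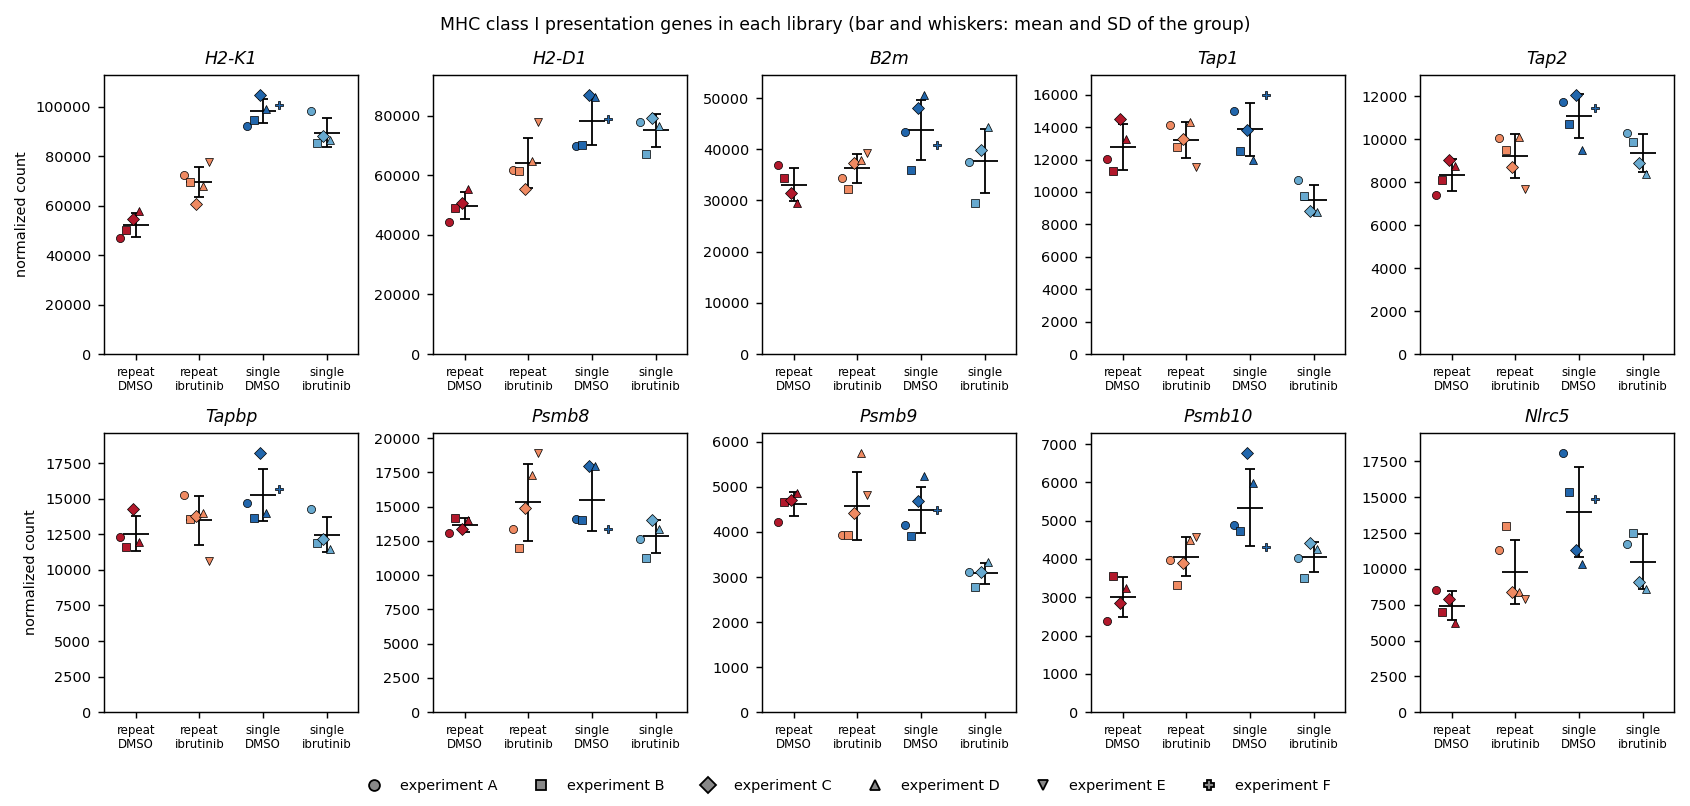
Normalized counts (vertical axes from 0) of the 10 genes in each library, by group, with markers for the experiments and the mean and SD of each group. All repeat peptide DMSO libraries of H2-K1, H2-D1, Tap2, Psmb10 and Nlrc5 lay below all single peptide DMSO libraries, and for Tap1 and Psmb9 the 4 single peptide ibrutinib libraries lay below all other libraries.

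With DMSO, repeat peptide cells carried less mRNA of most presentation genes than single peptide cells. The transcripts of 7 of the 10 genes were called lower and none was called higher, where 24.2% of all tested genes were called lower and 22.8% higher. Both heavy chains, B2m, Tap2, Tapbp, Psmb10 and Nlrc5 fell, and Tap1, Psmb8 and Psmb9 were not called. The median log2 fold change of the 10 genes was -0.41, against -0.0022 over all tested genes. For 5 of the 10 genes every repeat peptide library lay below every single peptide library, as held for 19.1% of tested genes. Fewer cells with these transcripts and less of them in each cell cannot be told apart in bulk RNA.

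H2-K1, the heavy chain that shows the OVA peptide, had normalized counts of 46750, 50201, 54555 and 57680 in repeat peptide cells with DMSO from experiments A to D. In single peptide cells with DMSO it had 92175, 94536, 104660, 99084 and 100879 in experiments A to D and F. The groups did not overlap, and the means were 52297 ± 4804 (SD, n = 4) and 98267 ± 4985 (SD, n = 5). The fitted log2 fold change was -0.91 (SE 0.11, adjusted p = 1.7e-06 in edgeR's quasi-likelihood test). H2-D1, the other classical heavy chain of this strain, fell from 78312 ± 8245 (SD, n = 5) to 49789 ± 4550 (SD, n = 4), a log2 fold change of -0.65 (SE 0.12, edgeR adjusted p = 0.0002), again without overlap. The longest coding transcripts of both genes were 88.2% identical over 1510 aligned bases, and fractional counts, which show that reads were shared with another gene, occurred in 7 libraries for H2-K1 and in 17 for H2-D1. The summed count of 28 class I heavy chain genes, which does not depend on how such reads were split among them, had a log2 fold change of -0.89 (edgeR adjusted p = 4.4e-06).

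B2m fell less, from 43739 ± 5844 (SD, n = 5) to 33080 ± 3240 (SD, n = 4) normalized counts, with overlapping groups and a log2 fold change of -0.40 (SE 0.13, edgeR adjusted p = 0.014). Of the transporter genes, Tap2 fell from 11071 ± 1026 to 8323 ± 734.4 without overlap (log2 fold change -0.41, edgeR adjusted p = 0.0028), whereas Tap1 had 13864 ± 1655 and 12761 ± 1409 and was not called (-0.12, edgeR adjusted p = 0.37). Tapbp was called at a log2 fold change of -0.28 (edgeR adjusted p = 0.048), and this call was lost in 6 of the 9 fits that left out 1 library of the compared groups, with adjusted p up to 0.129.

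The immunoproteasome genes differed among themselves. Psmb10 had 2381, 3563, 2846 and 3239 normalized counts in repeat peptide cells with DMSO, and 4884, 4726, 6756, 5985 and 4318 in single peptide cells with DMSO. The highest repeat peptide library stood below the lowest single peptide library, with a log2 fold change of -0.83 (SE 0.14, edgeR adjusted p = 9.2e-05). Psmb8 and Psmb9, which lie beside the transporter genes on chromosome 17, had log2 fold changes of -0.18 (edgeR adjusted p = 0.26) and 0.04 (edgeR adjusted p = 0.78). With the experiment as a block, Psmb8 was called as well (log2 fold change -0.215, edgeR adjusted p = 0.0461), which made 8 of the 10 genes lower where 53.6% of all tested genes were called in either direction. In that fit the libraries of experiments E and F carry no information.

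Nlrc5 had 8533, 7027, 7900 and 6230 normalized counts in repeat peptide cells with DMSO, and 18057, 15375, 11329, 10328 and 14851 in single peptide cells with DMSO. All values of the first group lay below those of the second. The log2 fold change was -0.91 (SE 0.18, edgeR adjusted p = 0.00042), the same size as that of H2-K1, although its spread between libraries was wider. On the TPM scale the median of all tested genes moved up by 0.136 in this comparison. There 3 of the 10 genes were called, namely H2-K1, H2-D1 and Psmb10, where 35.3% of tested genes were called in either direction. By number of calls the 10 genes thus did not stand out on this scale. There Tap1 and Psmb8 changed sign, with log2 fold changes of 0.018 and 0.0113.

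**Figure D2:**
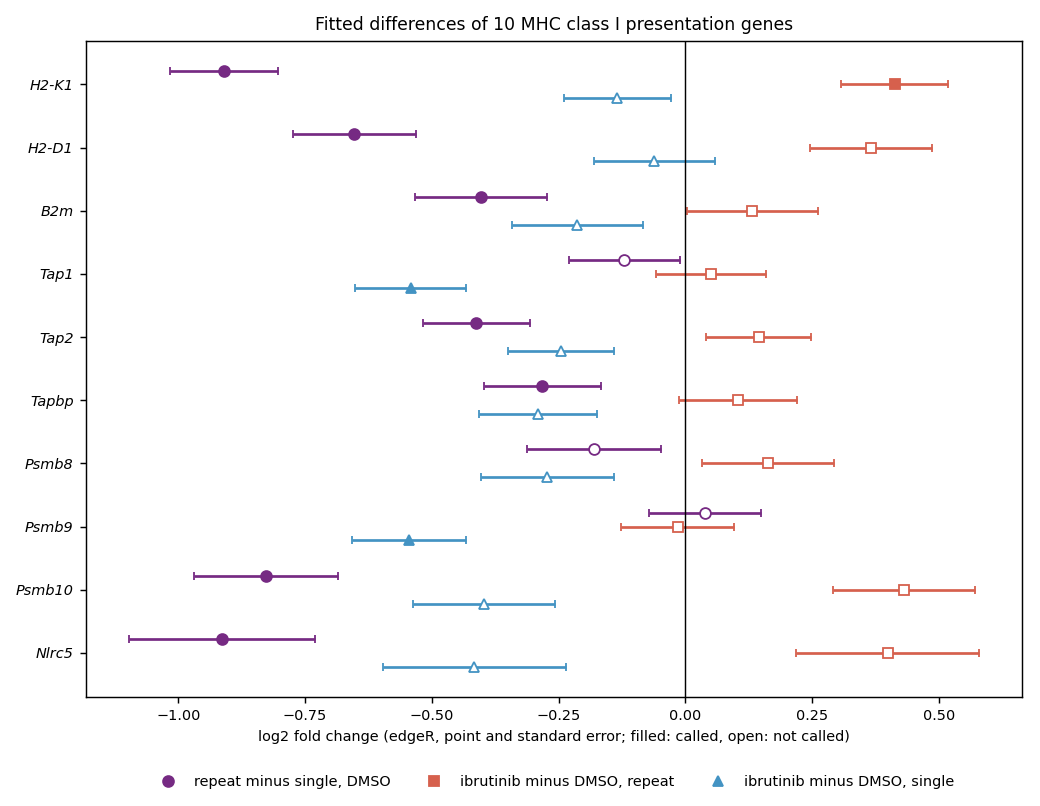
Fitted log2 fold change with its standard error (horizontal axis) for each gene in 3 comparisons, with filled symbols for called genes. Repeat against single peptide values reached down to -0.91, ibrutinib values in repeat peptide cells ran from -0.02 to 0.43 and those in single peptide cells from -0.55 to -0.06.

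Most other class I heavy chains that could be tested were lower too in this comparison, in which 22.8% of all tested genes were called higher and 24.2% lower. Of 18 listed genes 11 were tested, and 8 of these were called lower and none higher, with a median log2 fold change of -0.81. The largest falls were those of the Qa-2 heavy chain gene H2-Q7 (-1.59, edgeR adjusted p = 3.5e-05) and of H2-Q4 (-1.33, edgeR adjusted p = 2.47e-06). Genes that help class I molecules fold were called in both directions. Of 9 genes for peptide loading and folding in the endoplasmic reticulum 5 were called higher, led by the chaperone gene Hspa5 (0.70, edgeR adjusted p = 0.00216), and 2 lower, led by the tapasin-related Tapbpl (-0.56, edgeR adjusted p = 0.000531). Of the constitutive catalytic subunits, Psmb7 rose (0.61, edgeR adjusted p = 0.00884) and Psmb5 and Psmb6 were not called. Of 16 other core and assembly genes 2 were called higher, among them Psma1 (0.59, edgeR adjusted p = 0.0032), and none lower, both smaller shares than over all tested genes. Of 4 proteasome activator genes, Psme1 for a subunit of the interferon-inducible PA28 cap was called lower (-0.62, edgeR adjusted p = 0.0014). Of 7 peptidase genes 3 were called higher, led by Thop1 for thimet oligopeptidase (0.93, edgeR adjusted p = 0.000209). Of 10 genes for factors that bind class I promoters 3 were called higher, including Nfkb1 (0.64, edgeR adjusted p = 1.05e-05), and 4 lower, including Rfx5 (-0.57, edgeR adjusted p = 0.00187), which encodes a part of the X box complex.

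H2-K1 was higher with ibrutinib in repeat peptide cells. H2-K1 was the one call among the 10 genes, in the direction in which 4.01% of tested genes were called, and none was called lower, where the share was 1.92%. Its normalized counts with ibrutinib were 72414, 69473, 60647, 68145 and 77555 in experiments A to E, all above the 4 DMSO libraries given above. The mean was 69647 ± 6194 (SD, n = 5), and the log2 fold change was 0.41 (SE 0.11, edgeR adjusted p = 0.024). A full separation upward held for 1 of the 10 genes and for 4.64% of tested genes. The call was lost without the DMSO library of experiment A or that of experiment C (edgeR adjusted p up to 0.0735), and without the library of experiment E it stood at 0.372 (edgeR adjusted p = 0.044). On the TPM scale the value was 0.303 and was not called (limma adjusted p = 0.274). Summed over 28 heavy chain genes the log2 fold change was 0.40 (edgeR adjusted p = 0.0399). This comparison shares its DMSO libraries with the one above.

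H2-D1 had means of 49789 ± 4550 (SD, n = 4) without and 64151 ± 8362 (SD, n = 5) with ibrutinib, and its log2 fold change of 0.37 did not pass (edgeR adjusted p = 0.077). Psmb10 and Nlrc5 had fold changes of the same size, 0.43 (edgeR adjusted p = 0.073) and 0.40 (edgeR adjusted p = 0.21). With the experiment as a block they were called, Psmb10 at 0.381 (edgeR adjusted p = 0.0407) and Nlrc5 at 0.445 (edgeR adjusted p = 0.0106). That made 3 of the 10 genes, where 13.8% of tested genes were called. Nlrc5 with ibrutinib had 11294, 13011, 8412, 8356 and 7879 normalized counts, of which experiments A and B lay above the other 3. Psmb10 had 3973, 3331, 3900, 4508 and 4571, with the library of experiment B below its own DMSO partner. The remaining genes, B2m, Tap1, Tap2, Tapbp, Psmb8 and Psmb9, had log2 fold changes from -0.02 to 0.16 with edgeR adjusted p of 0.44 or more.

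Inside experiments A to D, where each ibrutinib library has a DMSO partner, H2-K1 was higher with ibrutinib in 4 of 4, by 0.631, 0.469, 0.153 and 0.241 on the log2 scale. H2-D1 was higher by 0.476, 0.333, 0.123 and 0.224 and Nlrc5 by 0.404, 0.889, 0.0906 and 0.424. These were 3 of the 10 genes, and 18.6% of tested genes were higher in 4 of 4 experiments. Psmb10 was higher in 3 of 4, and Psmb9 in 1 of 4.

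**Figure D3:**
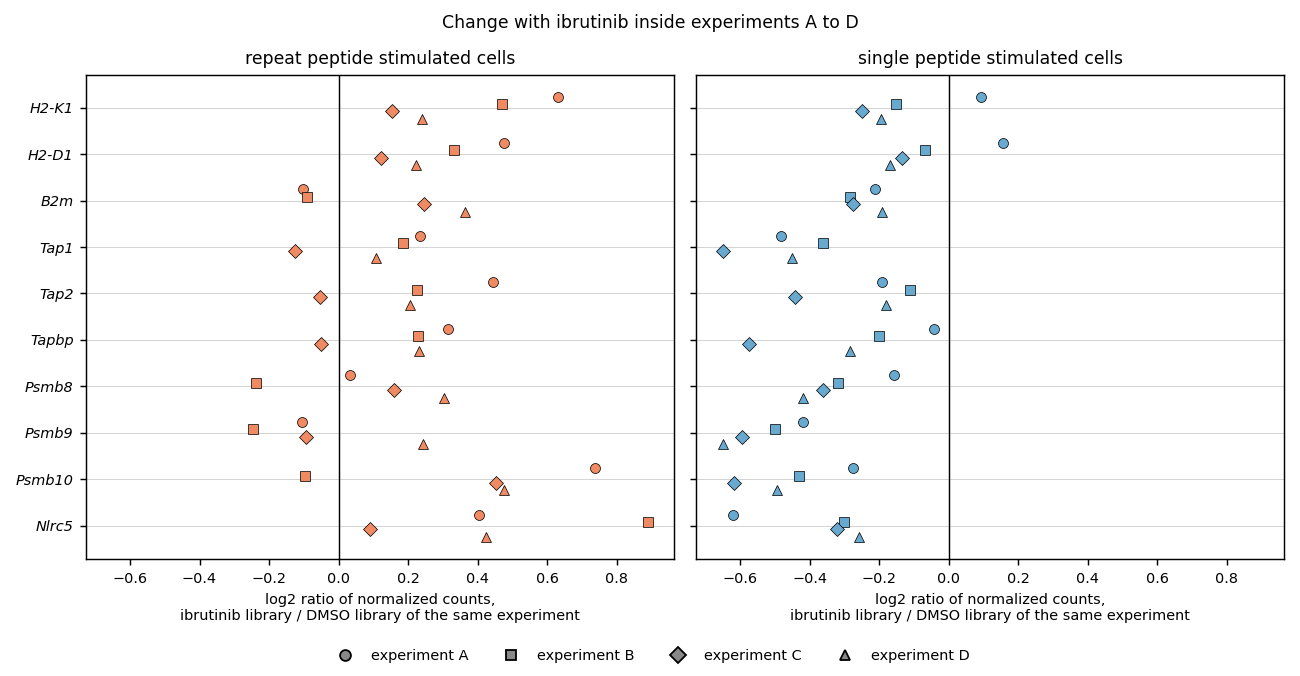
Log2 ratio of the ibrutinib to the DMSO library of the same experiment (horizontal axis) for each gene in experiments A to D, for repeat peptide cells on the left and single peptide cells on the right. On the left the H2-K1, H2-D1 and Nlrc5 points all lie right of 0, and on the right all points of 8 genes lie left of 0.

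In single peptide cells the neighbouring genes Tap1 and Psmb9 were lower with ibrutinib. These 2 of the 10 genes were called lower and none higher, where 2.69% of tested genes were called lower and 0.351% higher. Tap1 had 14999, 12533, 13821, 12000 and 15968 normalized counts with DMSO in experiments A to D and F, and 10737, 9754, 8820 and 8776 with ibrutinib in experiments A to D. The groups did not overlap, and the log2 fold change was -0.54 (SE 0.11, edgeR adjusted p = 0.01). Psmb9 had 4153, 3915, 4676, 5235 and 4486 with DMSO, and 3109, 2768, 3100 and 3339 with ibrutinib. It likewise showed no overlap, with a log2 fold change of -0.55 (SE 0.11, edgeR adjusted p = 0.012). A full separation downward held for these 2 genes and for 3.42% of tested genes. Both calls held without any 1 library of the compared groups, with edgeR adjusted p up to 0.048 and 0.0472. On the TPM scale Psmb9 was called (-0.606, limma adjusted p = 0.015) and Tap1 was not (-0.669, limma adjusted p = 0.106).

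The other 8 genes had log2 fold changes between -0.42 and -0.06 in single peptide cells, none of them called. The smallest were those of the heavy chains, -0.13 for H2-K1 (edgeR adjusted p = 0.66) and -0.06 for H2-D1 (edgeR adjusted p = 0.91). H2-K1 with ibrutinib had 98322, 85219, 88114 and 86556 normalized counts, within and below the DMSO range. The median log2 fold change of the 10 genes was -0.28, against 0.00995 over all tested genes. Within experiments, 8 of the 10 genes were lower with ibrutinib in 4 of 4, where 17.2% of tested genes were, and H2-K1 and H2-D1 were lower in 3 of 4. The block on experiment gave 5 calls, all lower, where 9.09% of tested genes were called. The added ones were Psmb8 (-0.315, edgeR adjusted p = 0.0348), Psmb10 (-0.457, edgeR adjusted p = 0.0214) and Nlrc5 (-0.378, edgeR adjusted p = 0.0341).

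The difference between the ibrutinib effects in repeat and single peptide cells was tested as an interaction. Psmb10 was the one gene called, at 0.83 on the log2 scale (SE 0.20, edgeR adjusted p = 0.045), where 1.04% of tested genes were called in this direction. Its ibrutinib effect was 0.43 in repeat peptide cells and -0.40 in single peptide cells. With ibrutinib the Psmb10 means of both stimulations were close, 4057 ± 506.8 (SD, n = 5) and 4050 ± 393.8 (SD, n = 4) normalized counts, while with DMSO they were 3007 ± 510.2 (SD, n = 4) and 5334 ± 1006 (SD, n = 5). The call was lost in 14 of 18 fits that left out 1 library (edgeR adjusted p up to 0.107). All 10 genes had interaction values above 0, from 0.345 to 0.829, with a median of 0.483 against 0.0183 over all tested genes. The interaction shares its DMSO libraries, with opposite sign, with the comparison of repeat and single peptide cells with DMSO. There 9 of the 10 genes lay below 0, so the 2 results are not independent. The block on experiment gave calls for 6 of the 10, all higher, where 5.54% of tested genes were called. Beside Psmb10 these were Nlrc5 (0.823, edgeR adjusted p = 0.00391), Tap1 (0.579, edgeR adjusted p = 0.0154), Psmb9 (0.489, edgeR adjusted p = 0.0182), Tapbp (0.458, edgeR adjusted p = 0.0381) and H2-K1 (0.497, edgeR adjusted p = 0.0451). Among the other heavy chains the interaction was called for H2-Q4 (1.0, edgeR adjusted p = 0.0308) and H2-T23 (0.616, edgeR adjusted p = 0.0454), which encodes Qa-1. H2-Q4 had means of 7491 and 10285 normalized counts in repeat peptide cells with DMSO and ibrutinib, and 18833 and 12912 in single peptide cells.

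When both stimulations were compared with ibrutinib present, 3 of the 10 genes were called. H2-K1 was lower in repeat peptide cells by a log2 fold change of -0.36 (SE 0.10, edgeR adjusted p = 0.0093), where 19.6% of tested genes were called lower. Tap1 (0.47, SE 0.11, edgeR adjusted p = 0.002) and Psmb9 (0.57, SE 0.11, edgeR adjusted p = 0.00053) were higher, where 18.7% were called higher. The H2-K1 call was lost without the single peptide ibrutinib library of experiment A (edgeR adjusted p = 0.0587). Nlrc5 had 9791 ± 2250 (SD, n = 5) and 10485 ± 1918 (SD, n = 4) normalized counts, with widely overlapping libraries. With the experiment as a block H2-D1 was called too, at -0.303 (edgeR adjusted p = 0.0138), in a fit that called 48.6% of tested genes. The single peptide ibrutinib libraries are those of the comparison with DMSO above.

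The balance between immunoproteasome and constitutive subunits was read within each library as a ratio of TPM values, which does not depend on the scaling between libraries. Psmb10 over Psmb7 was 0.668 ± 0.0669 (SD, n = 4) in DMSO-treated repeat peptide cells, whereas ibrutinib-treated ones had 1.0 ± 0.175 (SD, n = 5), and the groups did not overlap (highest 0.765 and lowest 0.812). In single peptide cells the DMSO libraries had 1.82 ± 0.223 (SD, n = 5) and the ibrutinib libraries 1.43 ± 0.139 (SD, n = 4), which met at 1.58. Psmb8 over Psmb5 followed the same order of groups, with 2.74 ± 0.207, 3.15 ± 0.205, 3.88 ± 0.227 and 3.3 ± 0.147. Psmb9 over Psmb6 did not, since repeat peptide cells had 0.67 with DMSO and 0.672 with ibrutinib, and single peptide cells had 0.868 and 0.582. Psmb7, the denominator of the first ratio, was itself higher in repeat peptide cells, as given above. These ratios were described without a test.

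**Figure D4:**
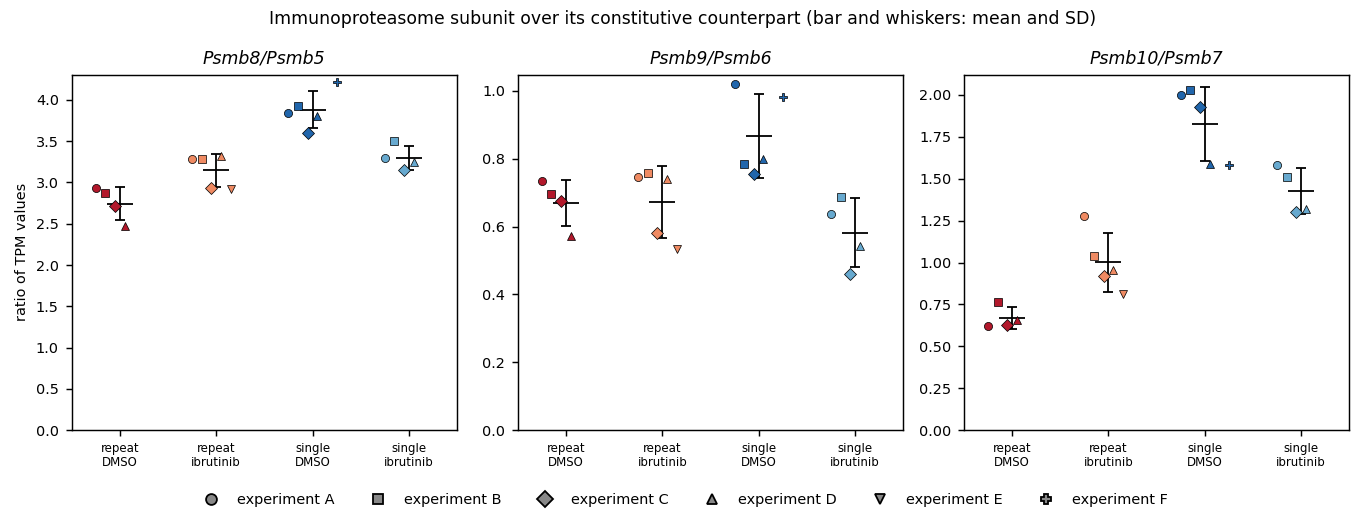
Ratio of TPM values of each immunoproteasome subunit to its constitutive counterpart (vertical axes from 0) in each library, with group mean and SD. The mean of Psmb10/Psmb7 is 0.668 in repeat peptide DMSO, 1.0 in repeat peptide ibrutinib, 1.43 in single peptide ibrutinib and 1.82 in single peptide DMSO cells.

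Interferon-gamma is a known strong inducer of these genes and acts through its receptor, the kinases JAK1 and JAK2 and transcription factors such as IRF1. In repeat against single peptide cells with DMSO the cytokine and its signalling genes moved in opposite directions. Ifng was higher, with a mean of 756.3 ± 342 (SD, n = 4) against 46.11 ± 31.6 (SD, n = 5) normalized counts (log2 fold change 4.04, edgeR adjusted p = 7.93e-06). The other 10 genes of the 11 in this list were all called lower, where the share over all tested genes was 24.2%. The largest falls were those of the receptor chain gene Ifngr2 (-2.46, edgeR adjusted p = 7.76e-07) and of Irf1 (-1.54, edgeR adjusted p = 6.82e-07). Ifngr2 had 51.34 to 67.46 normalized counts in repeat peptide cells and 267.9 to 422.1 in single peptide cells.

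With ibrutinib in repeat peptide cells Ifng fell by 1.78 on the log2 scale (edgeR adjusted p = 0.036), to a mean of 219.2 ± 102.1 (SD, n = 5), while Ifngr2 (1.15, edgeR adjusted p = 0.0126) and Irf1 (0.77, edgeR adjusted p = 0.00799) rose. In single peptide cells Ifng fell by 2.51 from a low level (edgeR adjusted p = 0.0494) and Irf1 by 0.70 (edgeR adjusted p = 0.0236). The interaction was called for Irf1 (1.47, edgeR adjusted p = 0.00213). Irf1 had the order of groups that H2-K1 had with DMSO, with means of 2822 in repeat and 8211 in single peptide cells, and came to 4807 and 5050 with ibrutinib. The part of interferon signalling in the levels of the presentation genes was not tested.

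**Figure D5:**
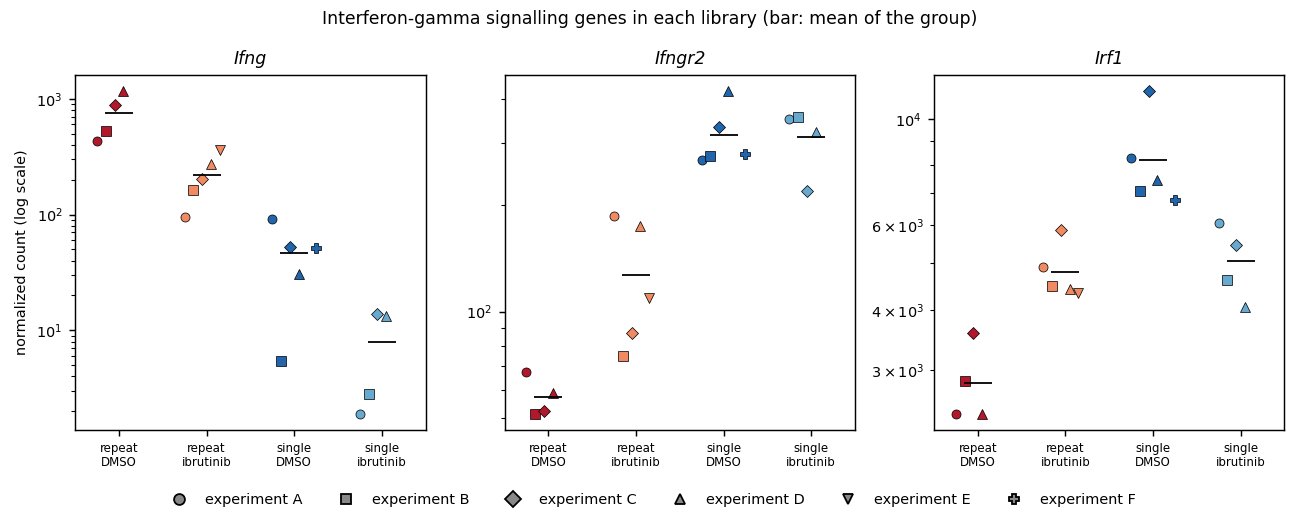
Normalized counts (log axis) of Ifng, Ifngr2 and Irf1 in each library, with the group mean as a bar. Ifng is highest in repeat peptide DMSO cells (mean 756.3), where Ifngr2 and Irf1 are lowest, and Irf1 is highest in single peptide DMSO cells (mean 8211).

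Within groups the 10 genes did not vary as a single block. The correlation of their log2 deviations from the group means over the 18 libraries had a median of 0.14 over 45 pairs, of which 23 were above 0. It was highest for Psmb8 with Psmb10 (0.843), for H2-K1 with H2-D1 (0.824), which share reads, and for Tap1 with Tap2 (0.82). It was lowest for Nlrc5 with Psmb8 (-0.876), Psmb9 (-0.787) and Psmb10 (-0.784), so that within a group libraries with more Nlrc5 tended to have less of these transcripts. That was not particular to the immunoproteasome, since Nlrc5 had -0.648 with H2-D1 and -0.608 with B2m. The constitutive Psmb7 had 2609, 2620, 3644, 3980 and 4876 normalized counts in repeat peptide ibrutinib libraries A to E. It was lowest in A and B, where Nlrc5 was highest, and so were Psmb5 and Psmb6. These are descriptions, since libraries grouped by experiment deviated together and libraries differed in composition, with the 3 named above at an extreme. Over all 18 libraries the genes most like Nlrc5 in log2 expression, among 10464 compared, were Atxn7l1 (r = 0.931), Uba7 (0.924), A230050P20Rik (0.923), Setd7 (0.923) and Traf3 (0.921).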

How the data were processed

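RNA-seq of 18 libraries was analysed. The authors trimmed the reads with Trim Galore, mapped them to GRCm38 with RSEM 1.3.1 and STAR, and deposited for each library a table of expected counts (estimated reads per gene, shared among genes where reads fit several), TPM values and effective lengths in bases. Expected counts were rounded, and genes were matched by identifier to GENCODE M21 (45143 of 45706), which left 27903 protein-coding or lncRNA genes with 98.5% of the counts. R 4.3.3 and edgeR 4.0.16 (filterByExpr, TMM, robust glmQLFit, glmQLFTest) fitted the 4 groups together over 12255 genes, with Benjamini-Hochberg adjusted p. Standard errors are the fold change divided by the square root of F. No 2 libraries of a group were alike within counting error (their chi-square over its degrees of freedom was 27.31 to 209.4 in 32 pairs), and each was kept as a separate sample.

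The 10 genes and the lists around them (other heavy chains, loading, proteasome, peptidases, interferon-gamma, promoter factors) were chosen with earlier results of these data known. Named were all 10 genes, at most 2 called genes of largest change per list and comparison, and the 5 genes most like Nlrc5. Other genes named, such as Rfx5, Psmb5 and Psmb6, were added after their values were seen. Libraries were paired by experiment through the genotype entry. Deviations from the group means correlated in each of 24 same-experiment pairs across groups (0.16 to 0.494, median 0.325), and 97 other pairs had a median of -0.0765. Alternatives were other scalings and filters, the block, the compared groups alone, DESeq2 1.42.0, limma 3.58.1 on log2(TPM + 1) or log2(TPM + 0.1), and each library left out. Promoter windows of Tap2 and Nlrc5 were not used here. A few genes are left out of the text.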

Additional observations from a re-analysis of the deposited data

Results flagged for a closer look

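The ibrutinib effect on Psmb10 differed between the stimulations, with an interaction of 0.829 on the log2 scale in edgeR's quasi-likelihood test (adjusted p = 0.045). In repeat peptide cells Psmb10 was higher with ibrutinib in 3 of 4 experiments, and in single peptide cells it was lower in 4 of 4. No single library stood apart in any of the 40 sets of values formed by the 10 genes and 4 groups, by Dixon's criterion at its 95% critical values of 0.829 for 4 and 0.71 for 5 libraries. That criterion looks for outlying values and does not show that the call is stable.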

How the results depend on the processing

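Of 1450 alternative values of single genes, 1319 kept their direction and their side of the threshold, 66 lost the call, 27 gained it and 38 changed sign, all of the last at small, uncalled values. A threshold of 1 on the absolute log2 fold change left 0 of the 10 genes called in each of the 5 comparisons, where 0.93% to 16.3% of tested genes were called. With the experiment as a replicate block, 3 genes were called for ibrutinib in repeat peptide cells, 5 in single peptide cells and 6 for the interaction, and the calls it added are given beside the results. It changed no other call of the 10 genes. DESeq2's Wald test called 3 genes for ibrutinib in repeat peptide cells (H2-K1, H2-D1 and Psmb10), where 8.76% of tested genes were called. For the interaction it called 4 (Psmb10, H2-K1, Tap1 and Psmb9), where the share was 2.62%. In the main fit these shares were lower, 5.92% and 1.26%. A fit of the compared groups alone called 0 genes for ibrutinib in repeat peptide cells, where 3.92% of tested genes were called. All gene types together gave 0 for the interaction, where the share was 1.11%. limma on TPM called, with either pseudocount, 3 genes for repeat against single peptide with DMSO, 0 for ibrutinib in repeat peptide cells and 1 in single peptide cells. With a pseudocount of 1 the shares of tested genes called in these 3 comparisons were 35.3%, 3.19% and 1.31%. With 0.1 they were 35.1%, 2.22% and 1.97%. On these scales the median of all tested genes moved by 0.136 and 0.17 in the first comparison.

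Leaving out each library gave 0 to 2 called genes for ibrutinib in repeat peptide cells and 0 to 1 for the interaction. The shares of tested genes called in these fits were 2.86% to 7.14% and 0.68% to 1.4%. Signs changed on the TPM scales for repeat against single peptide with DMSO (Tap1 0.018 and 0.0181, Psmb8 0.0113) and for ibrutinib in repeat peptide cells (Tap1 -0.0192 and -0.0194, Tapbp -0.0277 and -0.028). Psmb9 there reached 0.00242 without a filter, 0.00701 with the compared groups alone and -0.111 to 0.0473 with a library left out. For repeat against single peptide with ibrutinib, Tap2 reached 0.00313 with DESeq2 size factors, 0.0299 with a length offset, 0.0398 with the block, 0.00624 with the compared groups alone, 0.00322 with DESeq2, 0.174 and 0.175 with TPM, and -0.0568 to 0.0518 with a library left out. Psmb10 reached -0.0118 with the length offset, -0.0448 with the block and -0.0608 to 0.0934 with a library left out. B2m reached 0.0676 and 0.0677 and Nlrc5 0.011 and 0.0108 with TPM, and B2m -0.16 to 0.05 with a library left out. The causes were not tested. Depth did not limit these genes, whose normalized counts were 2381 or more in every library.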
